A study of Mus musculus with 32 samples.

Results

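The clustered replication-dependent histone genes are the many near-identical genes that encode the linker histone H1 and the core histones H2A, H2B, H3 and H4. They were taken from the total RNA count table by name (symbols beginning with Hist1h to Hist4h, without pseudogenes marked -ps) and kept where at least 10 counts were found in at least 4 of 16 libraries. Hist1h2al, which fits this rule, is annotated in RefSeq as a transcribed pseudogene and was kept. This left 64 genes of the 51267 rows of the table, with 5 of H1, 18 of H2A, 18 of H2B, 11 of H3 and 12 of H4. The RNA came from primary hippocampal neurons of P0 mice, at DIV 16 (16 days in culture), and each group received 1 agent for 30 minutes. The 6 FSK libraries came from cultures given 50 µM forskolin, a plant diterpene that switches on adenylyl cyclase, the enzyme that makes cAMP. The 6 DHPG libraries came from cultures given 30 µM DHPG, which activates metabotropic glutamate receptors mGluR1 and mGluR5, and the 4 DMSO libraries from cultures given an equal volume of DMSO. No strain or genotype is named in the labels used here, and the labels do not state whether the libraries of a group came from separate cultures or animals, so p-values measure the spread between libraries, which may be technical. Such cultures hold glia beside neurons, and in bulk RNA fewer cells of a type cannot be told apart from less RNA per cell.

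Most mRNAs of these genes are made in S phase, when a cell doubles its DNA and needs new nucleosomes. NPAT brings the genes' transcription under cyclin E and CDK2, and the mRNA ends in a stem-loop in place of a poly(A) tail, which is bound by SLBP, formed with the help of the U7 particle (LSM11) and trimmed by ERI1 when the mRNA is degraded. Neurons have left the cell cycle, and in them chromatin is supplied largely by histone variants, such as H3.3, whose genes lie outside the clusters and give polyadenylated mRNA. The libraries were made from total RNA with a stranded kit, per the labels.

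Of 69 rows that fitted the name, 5 fell outside the count rule: Hist1h1t and Hist1h2aa, known as testis histones, Hist1h2aj, Hist1h4m and Hist2h3c1. None of the 5 reached 10 counts in any library, and the highest values were 6 for Hist1h1t, 8.20 for Hist1h2aa, 2.49 for Hist1h2aj, 6.20 for Hist1h4m and 0 for Hist2h3c1. Just inside were Hist1h2ao, with 10 or more counts in 7 libraries, Hist1h2ba, a testis H2B, in 10, and Hist1h2bq in 11. The counts were estimated by the authors' software, which divides reads among sequences they match equally well, and 96.7% of the members' values were not whole numbers, against 26.6% over the table. Single members are therefore less certain than sums over a class. Hist1h2bq and Hist1h2br, whose sequences were not compared here, may show this. Hist1h2bq had 428, 27.6, 305 and 0 counts in DMSO 1 to 4, while Hist1h2br had 2104, 3399, 1500 and 1847. All 64 members passed the filter on low values before testing.

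The libraries held 20677117 to 59958600 counts and fell into a deep and a shallow set that the labels do not describe. The deep set (38409918 counts or more) was FSK 4 to 6, DHPG 6 and DMSO 2 to 4, with 10.8 to 27.7% of counts from mitochondrial rRNA, and the shallow set was FSK 1 to 3, DHPG 1 to 5 and DMSO 1, with 1.47 to 2.92%. FSK 4 and FSK 5 stood apart by their microglial genes, since the summed level of 12 microglial markers was 218 and 379 CPM there (counts relative to the TMM-scaled library total) and 22.9 to 55.2 in the other 14 libraries, with no marker at 0 in any library. They also had the lowest sums of both neuron lists. The 10 markers of excitatory neurons summed to 991 and 1073 CPM in FSK 4 and FSK 5, against 1221 to 1863 in the other 14 libraries. The 10 markers of inhibitory neurons summed to 353 and 292 CPM there, against 402 to 663. No marker of these lists or of astrocytes was at 0 in any library. FSK 6 stood apart by the histone genes themselves.

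Summed over the 64 genes, histone RNA was lower in the deep FSK libraries than in any other. The sum was 1771, 1529, 1736, 1061, 1017 and 431 CPM in FSK 1 to 6, against 1631, 1698, 2100, 1412, 1984 and 1517 CPM in DHPG 1 to 6 and 2204, 2033, 1611 and 1377 CPM in DMSO 1 to 4. The FSK and DMSO groups overlapped, because FSK 1 to 3 lay within the range of DMSO. The means were 1257 ± 519 CPM in FSK, 1724 ± 268 CPM in DHPG (SD, n = 6 each) and 1806 ± 379 CPM in DMSO (SD, n = 4). On the log2 scale the ratio of means was -0.52 for FSK over DMSO and -0.07 for DHPG over DMSO. It was -1.001 for FSK over DMSO within the deep set and -0.39 for FSK 1 to 3 over DMSO 1, the one shallow DMSO library. DHPG 6 over deep DMSO gave -0.14, and DHPG 1 to 5 over DMSO 1 gave -0.32.

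**Figure D1:**
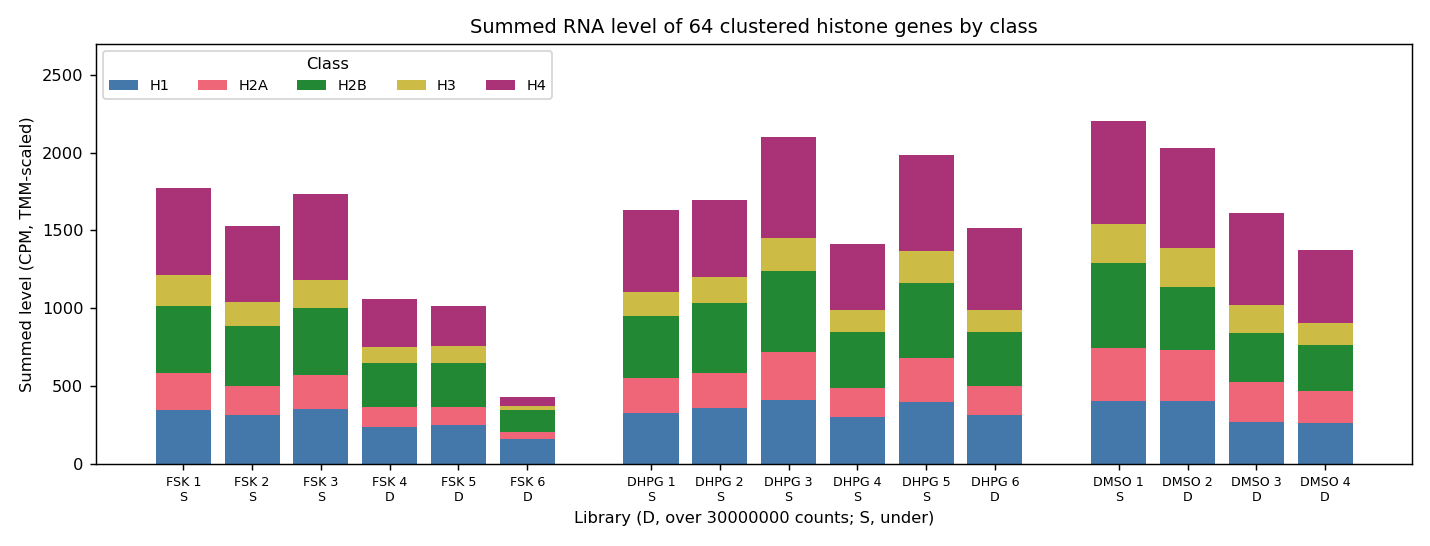
Summed level of the 64 histone genes in each library (CPM, vertical axis), stacked by histone class, with D and S marking the deep and shallow library sets. FSK 4, FSK 5 and FSK 6 hold the 3 lowest sums (1061, 1017 and 431 CPM).

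The size of the difference ran from small in H1 and H2B to large in H2A. For FSK over DMSO the log2 ratio of summed levels was -0.27 for H1, -0.88 for H2A, -0.27 for H2B, -0.66 for H3 and -0.67 for H4. H2A averaged 154 ± 71.8 CPM in FSK, 236 ± 49.5 in DHPG and 282 ± 61.1 in DMSO. H4 averaged 371 ± 197 CPM in FSK, 540 ± 81.4 in DHPG and 591 ± 86.5 in DMSO. H2B, the partner of H2A in the nucleosome, averaged 327 ± 114 CPM in FSK, 427 ± 69.5 in DHPG and 394 ± 116 in DMSO. In FSK 4 and FSK 5 alone, against deep DMSO, the log2 ratio was -1.17 for H2A and -0.98 for H4, but -0.34 for H1 and -0.27 for H2B.

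No single member passed the test for FSK against DMSO, at an adjusted p under 0.05 in edgeR's quasi-likelihood test across 17173 features. This was 0 of 64 members, where 0.809% of all features passed. At an unadjusted p under 0.05 there were 24 members, or 9 of 18 H2A, 7 of 11 H3, 4 of 18 H2B, 3 of 12 H4 and 1 of 5 H1 genes, against 21.3% of all features. The median log2 fold change of the members was -0.66, against 0.02 for all features tested, and 56 of 64 lay below 0. In 11 members every FSK library lay below every DMSO library, where 4.36% of all features did, and in 0 members did every FSK library lie above, where 3.62% of all features did. The 11 were Hist1h2ad, Hist1h2ai, Hist1h2ak, Hist1h2al, Hist2h2aa2, Hist1h2bf, Hist1h2bg, Hist1h3g, Hist2h3b, Hist1h4d and Hist1h4f.

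**Figure D2:**
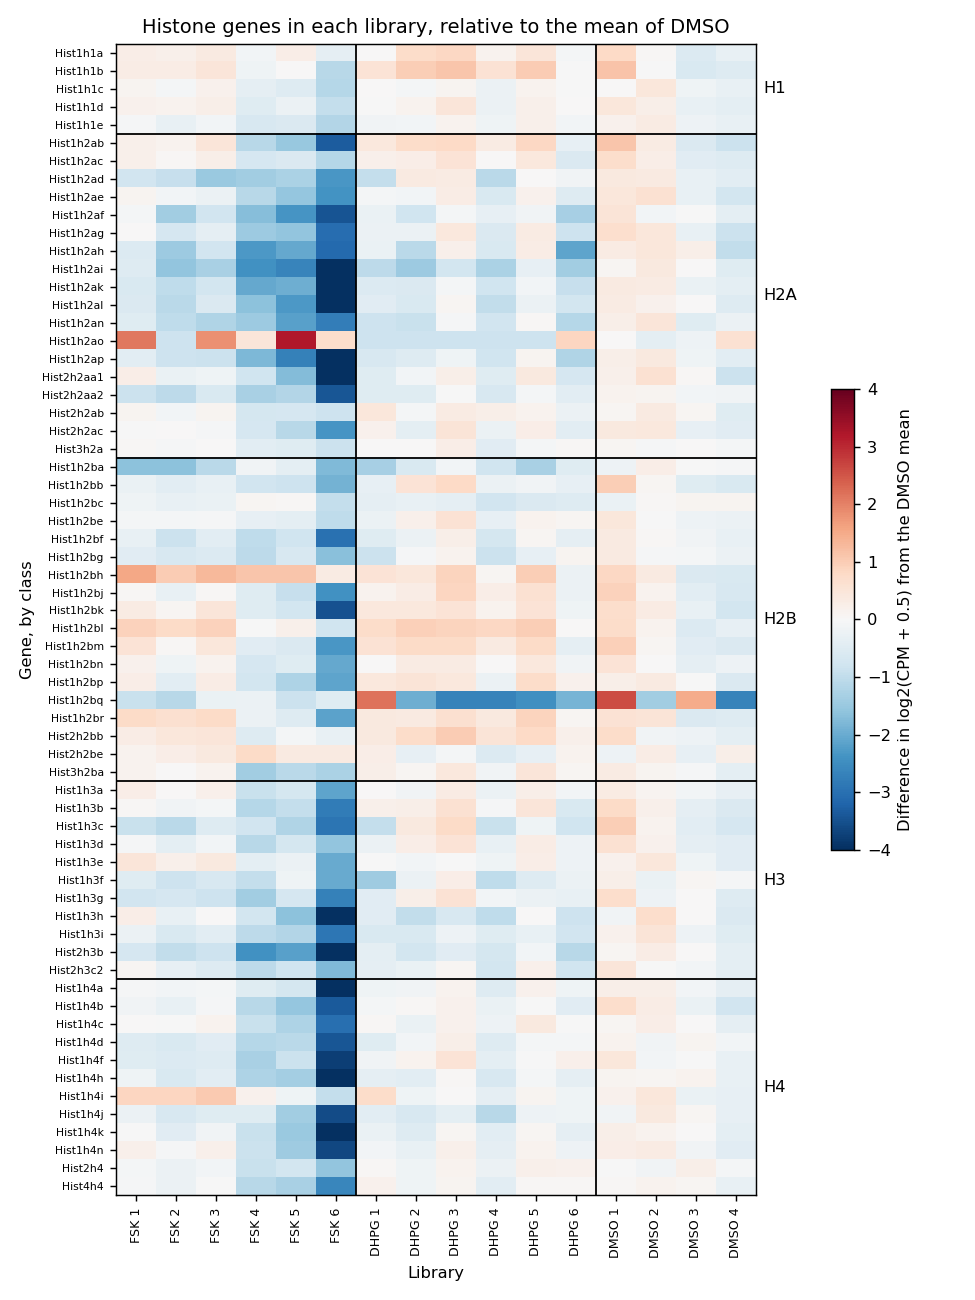
Level of each of the 64 genes (rows, by class) in each library (columns), as the difference in log2(CPM + 0.5) from the mean of the DMSO libraries, with the colour scale ending at 4 in both directions. The FSK 6 column is the darkest blue, FSK 4 and FSK 5 come next, and Hist1h2bh is red throughout FSK.

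Among H1 genes, which encode the linker histone that sits on the DNA between nucleosomes, the most abundant were Hist1h1c (H1.2) and Hist1h1e (H1.4). Hist1h1c had 119, 104, 123, 85.5, 76.1 and 49.3 CPM in FSK 1 to 6, a range of 93.7 to 122 in DHPG, and 111, 151, 96.8 and 90.3 in DMSO. Hist1h1e ranged over 50.4 to 109 CPM in FSK, around a median of 84.4, over 101 to 130 in DHPG, around 106, and stood at 129, 142, 98.2 and 93.5 in DMSO. The groups overlapped for both genes, and the log2 fold changes for FSK against DMSO were -0.27 ± 0.21 for Hist1h1c and -0.45 ± 0.18 for Hist1h1e (± SE; adjusted p = 0.469 and 0.173, edgeR). Hist1h1a (H1.1) did not share in the low levels, with 31.0 ± 5.60 CPM in FSK and 30.3 ± 13.6 in DMSO.

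Of the 18 H2A genes, 17 had a log2 fold change below 0 for FSK against DMSO. Hist1h2ad had 2.62, 2.26, 1.39, 1.49, 1.68 and 0.55 CPM in FSK 1 to 6, a range of 1.999 to 6.23 around a median of 4.52 in DHPG, and 6.41, 6.19, 3.76 and 3.40 in DMSO. All 6 FSK libraries lay below all 4 DMSO libraries, shallow ones included. Its log2 fold change for FSK against DMSO was -1.57 ± 0.39, with the smallest p of all members (adjusted p = 0.0654, edgeR). Hist2h2aa2, in the cluster on chromosome 3, had 20.9, 18.7, 25.01, 15.5, 16.9 and 3.15 CPM in FSK, 24.9 to 38.1 in DHPG, and 42.6, 41.7, 35.8 and 35.3 in DMSO. Its groups did not overlap either (log2 fold change -1.22 ± 0.34, adjusted p = 0.0822). Hist1h2an ranged over 0.15 to 2.66 CPM in FSK and 1.499 to 4.13 in DHPG and had 4.73, 5.67, 2.65 and 3.31 in DMSO, so that FSK 1 just reached DMSO 3 (-1.72 ± 0.52, adjusted p = 0.0982). Hist3h2a, the most abundant H2A row, had 66.2, 62.7, 64.9, 48.2, 46.2 and 35.6 CPM in FSK, 47.1 to 77.9 in DHPG, and 68.7, 62.9, 65.9 and 60.7 in DMSO (-0.26 ± 0.16, adjusted p = 0.368).

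Of the 18 H2B genes, 13 had a log2 fold change below 0. Hist1h2bg had 29.2, 25.5, 27.3, 19.3, 25.8 and 12.3 CPM in FSK, 22.0 to 44.5 in DHPG, and 52.2, 38.7, 38.3 and 34.0 in DMSO, with no overlap between FSK and DMSO (-0.81 ± 0.24, adjusted p = 0.0955). Hist1h2bh had 16.6, 11.2, 13.9, 12.01, 12.2 and 6.82 CPM in FSK, 4.45 to 11.1 in DHPG, and 9.90, 6.95, 3.40 and 3.36 in DMSO. It was the member with the smallest p among those with a higher mean in FSK (1.05 ± 0.34, adjusted p = 0.11, edgeR), and only FSK 6 lay below the highest DMSO library. Among abundant H2B genes, Hist1h2br had a median of 74.5 CPM in FSK (13.8 to 106), 81.1 in DHPG (65.2 to 115) and 65.6 in DMSO (41.4 to 93.0). Hist1h2bc had 49.4, 45.2, 46.2, 59.3, 57.6 and 28.5 CPM in FSK and 46.7, 57.9, 60.7 and 59.9 in DMSO, and its FSK 4 and FSK 5 levels lay within the range of DMSO. The log2 fold changes were 0.07 ± 0.42 for Hist1h2br and -0.24 ± 0.16 for Hist1h2bc (adjusted p = 0.945 and 0.411).

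For H3, Hist1h3i had 28.9, 22.4, 25.6, 16.3, 15.01 and 4.17 CPM in FSK, 19.8 to 29.4 in DHPG, and 38.1, 49.0, 29.5 and 24.5 in DMSO (-0.92 ± 0.35, adjusted p = 0.152). Hist1h3e had 52.4, 42.8, 48.6, 28.1, 31.2 and 8.79 CPM in FSK, 32.4 to 45.1 in DHPG, and 42.1, 50.9, 32.7 and 27.1 in DMSO. Its level in FSK 1 lay above every DMSO library, in FSK 6 below every one, and in FSK 2 to 5 within their range (-0.11 ± 0.33, adjusted p = 0.874). Hist2h3b, on chromosome 3, had 9.15, 7.26, 8.11, 2.36, 2.91 and 0.22 CPM in FSK, 6.58 to 13.8 in DHPG, and 15.7, 18.6, 14.9 and 11.3 in DMSO. All of its FSK libraries lay below DMSO (-1.61 ± 0.55, adjusted p = 0.125).

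For H4, Hist1h4d had 81.2, 75.05, 83.9, 52.8, 54.2 and 10.3 CPM in FSK, 80.3 to 137 in DHPG, and 129, 105, 125 and 107 in DMSO. The FSK and DMSO groups did not overlap (-0.97 ± 0.36, adjusted p = 0.146). Hist1h4n had 115, 97.6, 116, 55.5, 37.4 and 7.57 CPM in FSK, 77.6 to 114 in DHPG, and 121, 127, 91.8 and 72.5 in DMSO (-0.53 ± 0.47, adjusted p = 0.542). The 3 shallow FSK libraries lay inside the range of DMSO for Hist1h4n and below it for Hist1h4d.

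When the fit was given a term for library set, 24 members fell and 1 rose for FSK against DMSO, where 9.45% of all features passed and 5.99% passed and were lower. The 24 were 11 of 18 H2A, 7 of 11 H3, 3 of 18 H2B, 2 of 12 H4 and 1 of 5 H1 genes, and the one that rose was Hist1h2bh (0.93 ± 0.26, adjusted p = 0.0401, edgeR). The largest falls among H2A genes were Hist1h2ah (-3.06 ± 0.65, adjusted p = 0.0178), Hist1h2ai (-2.52 ± 0.61, adjusted p = 0.0283) and Hist1h2af (-2.25 ± 0.53, adjusted p = 0.0252). In H3 the largest was Hist2h3b (-2.27 ± 0.49, adjusted p = 0.0183). Without FSK 6 and with the same term, 35 members fell and Hist1h2bh rose, where 23.2% of all features passed and 12.1% were lower, and the 35 held all of the 24. They were 14 H2A, 7 H3, 7 H4, 6 H2B and 1 H1 genes, and Hist2h2aa2 had the smallest p (-1.10 ± 0.14, adjusted p = 0.000777). Without FSK 4, FSK 5 and FSK 6, and with the term, 0 members passed in edgeR, where 0.22% of all features passed, and the median was -0.50. At an unadjusted p under 0.05 there were 32 of 64 members, against 15% of all features. Without FSK 4 and FSK 5 alone, and with the term, 0 members passed in edgeR as well, where 0.335% of all features passed. The median was then -1.15, and 39 of 64 members had an unadjusted p under 0.05, against 19.3% of all features. The fits with the term that leave out FSK 6, or FSK 4 to 6, were added after the data were seen.

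**Figure D3:**
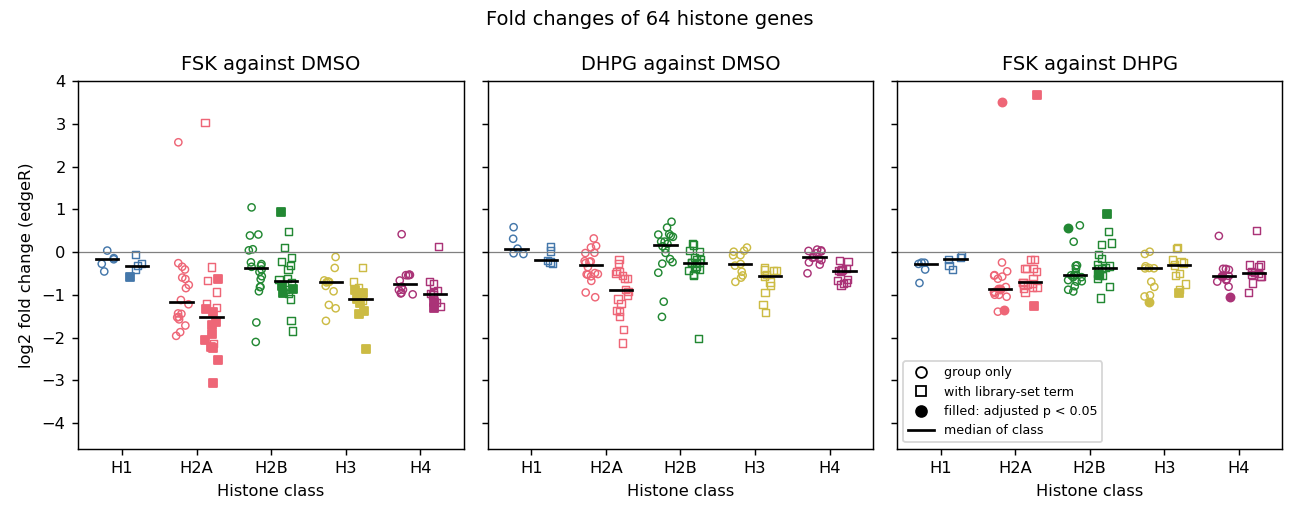
log2 fold change of each histone gene (points, by class) for the 3 comparisons, from the fit with treatment group only (circles) and with a term for library set (squares), with filled points at an adjusted p under 0.05 and bars at class medians. For FSK against DMSO the H2A median is -1.17 without and -1.52 with the term, and the H2B median -0.38 and -0.68.

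In FSK 6 the histone genes were low, but unevenly so. It was the lowest of the 16 libraries for 57 of 64 members, and its summed level was 25.8% of the mean of deep DMSO (DMSO 2 to 4). By class it was 50.5% for H1, 40.5% for H2B, 18.0% for H2A, 15.9% for H3 and 10.3% for H4. The median member stood at 14.7%, with 40 members under 25%, 23 under 10% and 12 over 50%. Hist1h4k had 0 counts in FSK 6, against 25.6, 18.8, 23.4, 13.7 and 9.06 CPM in FSK 1 to 5 and 30.5, 28.8, 26.3 and 19.8 CPM in DMSO. Hist1h2ah, Hist1h2ap, Hist1h2ba and Hist2h2aa1 were also at 0 there. At the other end Hist1h1a stood at 92.8%, Hist2h2bb at 96.8%, Hist2h2be at 124% and Hist1h2bh at 149%. Hist1h2ao stood at 217%, from 37.8 counts, while Hist1h2ap had 0. These are values of 1 library, with no replicate of their own.

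**Figure D4:**
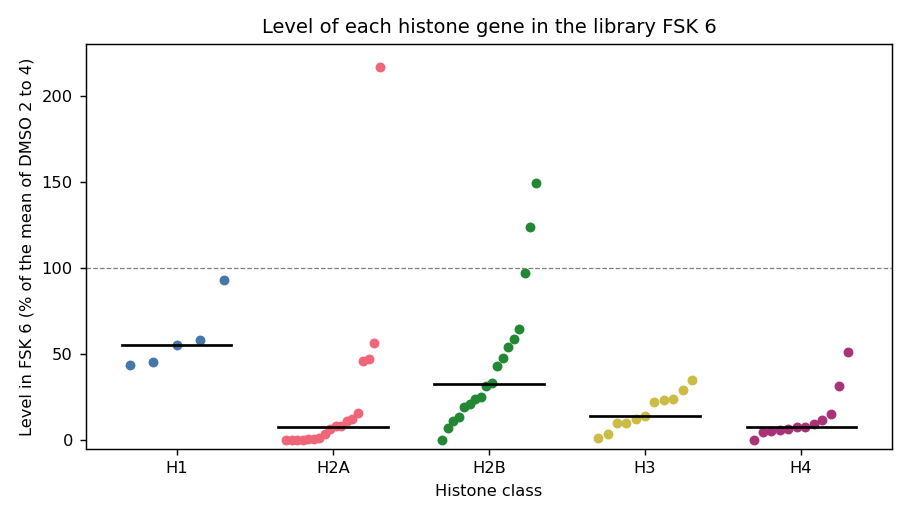
Level of each gene in the library FSK 6 as a percent of its mean in DMSO 2 to 4 (vertical axis), by histone class, with bars at class medians and a dashed line at 100%. The medians are 55.4% for H1, 32.3% for H2B, 14.1% for H3, 7.69% for H4 and 7.39% for H2A.

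The annotated length of the gene, the class and the level in FSK 6 can be set side by side. Of 63 members matched to RefSeq (GRCm38.p6), 7 spanned more than 1000 bases, and their median in FSK 6 was 47.9% of deep DMSO, against 13.2% for the 56 shorter ones. The 7 were Hist1h2al, which was at 0.43%, Hist1h2bc, Hist1h2be, Hist1h2bp, Hist1h2bq, Hist1h2br and Hist2h2be, so 6 of the 7 were H2B genes, and they ran from 0.43% to 124%. Within H2B the median was 50.9% for the 6 long and 28.3% for the 12 short genes, a difference that was not tested. Over 72 other protein-coding genes spanning 1000 bases or less with a mean of at least 1 CPM, the median log2 ratio of FSK 6 to deep DMSO was 0.02, against -2.19 for the 64 histone genes.

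Most members lie in a few clusters, where H2A and H2B genes often stand head to head and share the DNA between their starts. On chromosome 13 there were 21 members between positions 21715711 and 22043658 and 29 between 23531044 and 23934156, with 9 on chromosome 3, 2 on chromosome 11 and 1 on chromosome 6. Hist1h2al lay apart on chromosome 13. The median log2 fold change for FSK against DMSO was -0.64 in the first and -0.71 in the other large cluster, and -0.60 on chromosome 3. Among members with a promoter entry in RefSeq, there were 8 H2A and H2B pairs with starts 164 to 249 bases apart, all on chromosome 13. Members without such an entry had no strand and were not paired. Among them were Hist1h2bc, beside Hist1h2ac, and Hist2h2be, beside Hist2h2ac on chromosome 3, so 8 is not a full count. The H2A gene had the lower log2 fold change in 7 of the 8, with medians of -1.55 for H2A and -0.60 for H2B. The other pair, Hist1h2ao and Hist1h2bq, went the other way and had the widest split of all, at 2.57 ± 1.29 and -2.10 ± 1.40 (± SE). Both values are uncertain, and no real split can be read from them. Hist1h2ao was at 0 in DHPG 1 to 5 and FSK 2, and Hist1h2bq had 428, 27.6, 305 and 0 counts in DMSO 1 to 4. The medians above include this pair.

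The stretch between the starts of Hist1h2ai and Hist1h2bl belongs to the pair with the widest split among those 7. Hist1h2ai had 11.9, 5.45, 6.75, 2.79, 2.36 and 0.05 CPM in FSK 1 to 6, 5.96 to 13.8 in DHPG, and 18.2, 23.0, 17.5 and 12.2 in DMSO. Hist1h2bl had 20.8, 18.7, 20.8, 10.54, 12.5 and 5.87 CPM in FSK, 10.9 to 21.7 in DHPG, and 18.1, 11.8, 7.18 and 8.43 in DMSO. The H2A gene of this pair lay below every DMSO library in FSK, and the H2B gene overlapped with DMSO on both sides (-1.87 ± 0.65, adjusted p = 0.126, and 0.39 ± 0.33, adjusted p = 0.526). In the pair Hist1h2ah and Hist1h2bk the log2 fold changes were -1.96 and -0.34, and in the pair Hist1h2ae and Hist1h2bg they were close, at -0.84 and -0.81. The bases between the starts of these 3 pairs, chosen as a wide split, a wide split and an even pair, are shown from RefSeq on GRCm38.p6, each read 5′ to 3′ towards the H2B gene, at chr13:21716184-21716411 (minus strand, 228 bases), chr13:22035644-22035820 (plus strand, 177 bases) and chr13:23571221-23571399 (plus strand, 179 bases). Capitals mark CCAAT, the octamer ATTTGCAT and TATAAA on either strand.
Hist1h2ai to Hist1h2bl: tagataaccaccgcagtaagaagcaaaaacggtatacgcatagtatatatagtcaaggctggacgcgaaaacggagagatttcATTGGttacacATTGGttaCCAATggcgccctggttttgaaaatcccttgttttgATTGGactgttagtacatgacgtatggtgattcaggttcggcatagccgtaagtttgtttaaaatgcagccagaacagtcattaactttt
Hist1h2ah to Hist1h2bk: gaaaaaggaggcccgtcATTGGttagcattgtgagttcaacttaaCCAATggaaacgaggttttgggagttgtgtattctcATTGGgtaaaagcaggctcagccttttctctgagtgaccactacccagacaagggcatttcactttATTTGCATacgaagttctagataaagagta
Hist1h2ae to Hist1h2bg: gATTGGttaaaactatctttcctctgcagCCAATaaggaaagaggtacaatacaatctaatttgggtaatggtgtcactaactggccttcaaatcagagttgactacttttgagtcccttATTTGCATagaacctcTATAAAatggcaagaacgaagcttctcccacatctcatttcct

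The even pair, Hist1h2ae and Hist1h2bg, held 2 CCAAT, 1 octamer and 1 TATAAA, the pair Hist1h2ah and Hist1h2bk 3 CCAAT and 1 octamer, and the pair Hist1h2ai and Hist1h2bl 4 CCAAT. These pairs were picked by their fold changes, and the motifs of the other pairs were not counted pair by pair. Whether motifs go with the split was not tested. For H4, the 100 bases before the start of Hist1h4d (chr13:23581468-23581567, plus strand), 1 of 2 H4 genes whose FSK and DMSO libraries did not overlap, and of Hist1h4k (chr13:21750554-21750653, minus strand), the H4 gene at 0 in FSK 6, are shown with the same capitals.
Hist1h4d: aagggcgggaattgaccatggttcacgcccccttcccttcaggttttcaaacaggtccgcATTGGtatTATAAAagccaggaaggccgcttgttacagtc
Hist1h4k: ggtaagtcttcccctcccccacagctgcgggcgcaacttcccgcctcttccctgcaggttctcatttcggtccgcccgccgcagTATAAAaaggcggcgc

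Both H4 stretches held 1 TATAAA, and Hist1h4d also 1 CCAAT. In the 250 bases before the start of 58 member promoters in RefSeq, searched on both strands, CCAAT was found in 84.5%, against 33.8% of 32851 promoters of all genes. All 16 H2A and 17 H2B promoters held it, but 3 of 11 H4 promoters. These promoters are not separate observations. In the 8 head-to-head pairs the starts lay 164 to 249 bases apart, so the stretch between them was searched for both genes. Hist1h2be was entered with 2 promoters. TATAAA was found in 46.6%, against 12.4%, and ATTTGCAT in 22.4%, against 1.60%, and only in H2A and H2B promoters (6 of 16 and 7 of 17). AAACACA, the H1 box, was found in 4 of 5 H1 promoters and in 12.1% of all member promoters, against 6.25%. TGACGTCA, the full cAMP response element, was found in 4 members (6.90%), against 1.55%, with 1 each in H2A and H2B and 2 in H4. No motif searched contains another, and a match describes the letters only.

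DHPG against DMSO gave 0 of 64 members past an adjusted p of 0.05, where 0.00582% of all features passed. In edgeR 3 members had an unadjusted p under 0.05, against 12.4% of all features, and the median log2 fold change was -0.10. Hist1h2bc had 43.6, 45.6, 43.7, 32.7, 37.3 and 39.2 CPM in DHPG and 46.7, 57.9, 60.7 and 59.9 in DMSO, and was the one member with every DHPG library below every DMSO library, where 0.67% of all features were (-0.48 ± 0.16, adjusted p = 0.4, edgeR). Hist2h2bb had 41.2, 52.8, 64.02, 45.3, 55.6 and 36.5 CPM in DHPG and 52.7, 28.3, 27.6 and 24.0 in DMSO, where the shallow DMSO 1 stood within DHPG (0.57 ± 0.25, adjusted p = 0.4). Hist1h2bl (0.71 ± 0.33, adjusted p = 0.4) and Hist1h2ai (-1.06 ± 0.64, adjusted p = 0.433) had the next smallest p. With the library-set term the median was -0.44, 58 of 64 members lay below 0 and 0 passed, as for all features (0%), with 12 at an unadjusted p under 0.05, against 2.33% of all features. DHPG has 1 deep library and DMSO has 1 shallow library, so this comparison rests on few libraries within a set.

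FSK against DHPG gave 7 of 64 members past the limit, or 10.9%, against 30.8% of all features. Of these, 5 were lower, against 14.4% of all features, and 2 higher in FSK. Hist1h3g had 3.39, 3.70, 3.26, 2.04, 3.67 and 0.52 CPM in FSK and 4.39 to 9.51 in DHPG (-1.16 ± 0.37, adjusted p = 0.0297), and Hist1h4f had 20.2, 19.6, 19.95, 11.4, 15.4 and 1.65 CPM in FSK and 21.4 to 41.5 in DHPG (-1.05 ± 0.38, adjusted p = 0.048). These were the 2 members in which every FSK library lay below every DHPG library, where 4.03% of all features did. Hist1h2ad (-1.36 ± 0.36, adjusted p = 0.0184), Hist2h2aa2 (-0.87 ± 0.31, adjusted p = 0.043) and Hist2h4 (-0.57 ± 0.21, adjusted p = 0.0485) were also lower. Hist2h2be, which in mouse olfactory neurons is known as H2BE, an H2B variant made outside S phase, had 4.55, 5.04, 5.46, 7.34, 5.37 and 5.42 CPM in FSK and 5.00, 3.16, 3.82, 2.64, 3.13 and 4.52 in DHPG and was higher (0.57 ± 0.19, adjusted p = 0.0319). Hist1h2ao was also higher (3.51 ± 1.18, adjusted p = 0.0356), but it was at 0 in DHPG 1 to 5 and FSK 2. It had 78.4, 72.8, 41.5, 319 and 37.8 counts in FSK 1, 3, 4, 5 and 6. Outside FSK it reached 10 counts only in DHPG 6 and DMSO 4, at 44.1 and 37.1 counts. It therefore met the count rule only through FSK, the group where it was high, and its call is no evidence of a rise. It may share reads with Hist1h2ap, which was not tested. Without FSK 4 and FSK 5 the count was 0 in edgeR, where 0.0179% of all features passed, with 7 members at an unadjusted p under 0.05, against 28.5% of all features. Leaving out 1 library at a time moved the count of members past the limit, and the share of all features past it moved as well. The count was 1 without DHPG 2, DHPG 3, DHPG 5 or FSK 5 (17.7, 11.2, 13.9 and 10.6% of all features). It was 13 without FSK 3 (33.9%), 12 without FSK 1 (29.1%) and 2 without FSK 4 (15.1%). Without DMSO 2, DMSO 3, DMSO 4 or DHPG 6 it was 4 (27.9, 26.1, 28.4 and 32.1%).

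The other genes of the pathway were counted by list, where 0.809% of all features passed for FSK against DMSO. Of 11 replication-independent histone variants, 1 fell for FSK against DMSO: H2afx, whose product H2A.X marks DNA breaks when phosphorylated and whose gene gives both a stem-loop and a polyadenylated mRNA (16.9 ± 3.07 CPM in FSK, 20.6 ± 3.24 in DHPG and 27.4 ± 4.43 in DMSO, log2 fold change -0.70 ± 0.15, adjusted p = 0.0461, edgeR). Of 16 genes of histone mRNA transcription, processing and decay, 0 passed for FSK against DMSO, where the smallest p were those of Eri1 (0.39 ± 0.12, adjusted p = 0.109) and Npat (0.56 ± 0.20, adjusted p = 0.132). For FSK against DHPG, where 30.8% of all features passed, 2 of the 16 rose and 4 fell, with Npat at 0.81 ± 0.18 (adjusted p = 0.0164) and Lsm11 at -0.71 ± 0.19 (adjusted p = 0.0178). Of 21 histone chaperones, which carry histones to DNA, 0 passed for FSK against DMSO, and for FSK against DHPG 2 rose and 3 fell, also against 30.8% of all features, among them Asf1a (0.65 ± 0.16, adjusted p = 0.0168) and Supt16 (0.46 ± 0.13, adjusted p = 0.0203). No gene of these 3 lists passed for DHPG against DMSO, where 0.00582% of all features passed.

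Genes of DNA synthesis and mitosis were set beside the histone genes, since histone mRNA is made in dividing cells. Of 29 genes of DNA replication and S phase, 0 passed for FSK against DMSO, where 0.809% of all features passed. Their median log2 fold change was 0.01. For FSK against DHPG 2 of them fell, against 14.4% of all features lower, Mcm2 (-0.56 ± 0.17, adjusted p = 0.0256) and Tk1 (-0.90 ± 0.30, adjusted p = 0.0363). The summed level of the 29 genes was 277 CPM in FSK 6, against 286, 273 and 279 CPM in DMSO 2 to 4. For 12 markers of cycling cells it was 112 CPM in FSK 6, against 107, 88.8 and 117 CPM in DMSO 2 to 4. In FSK 4 and FSK 5 the cycling markers summed to 197 and 290 CPM and the S phase genes to 352 and 397 CPM, above deep DMSO, while the histone sum there was below it. The cycling markers had a median log2 fold change of 0.84 for FSK against DMSO, with 0 of 12 past the limit, against 0.809% of all features. No marker of this list was at 0 in any library. The part of microglia, of neurons, of cycling cells, of library set and of mitochondrial rRNA, which was 22.2 to 27.7% in FSK 4 to 6 and 10.8 to 18.7% in DMSO 2 to 4, in the histone differences was not tested.

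**Figure D5:**
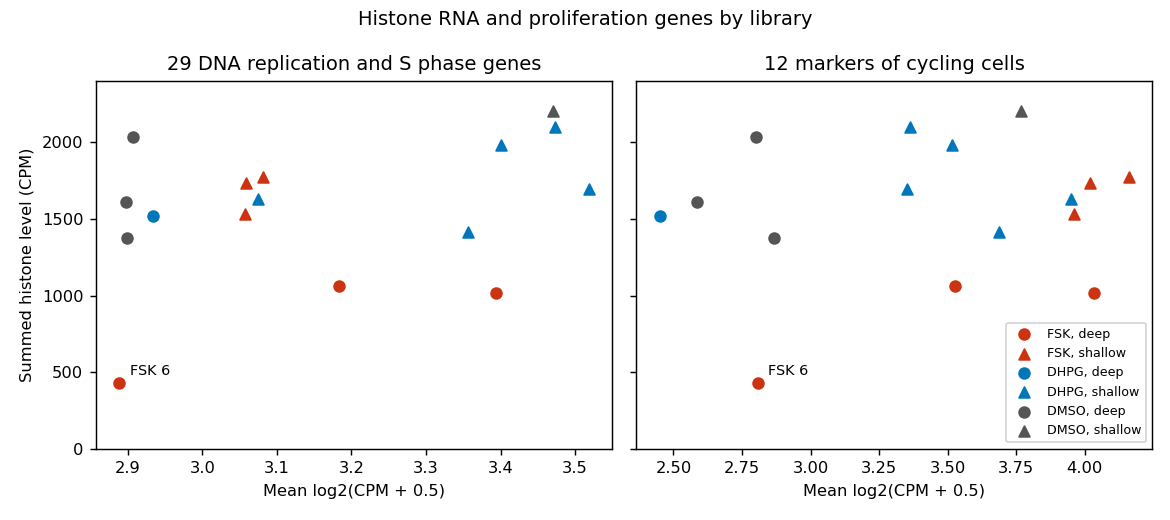
Summed level of the 64 histone genes (CPM, vertical axis) against the mean log2(CPM + 0.5) of S phase genes (left) and of cycling cell markers (right), 1 point per library, with circles for the deep and triangles for the shallow set. FSK 6 lies at the S phase level of DMSO 2 to 4 (2.89, against 2.90 to 2.91) but far below them in histone sum, and FSK 4 and FSK 5 lie to the right of deep DMSO and below it.

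In the authors' deposited table, 4 members were lower and 1 higher for FSK against DMSO at an adjusted p under 0.05, where 8% of its rows passed. The authors' deposited table gave Hist1h2ad a log2 fold change of -1.60 (adjusted p = 0.00186), Hist1h2bg -0.83 (adjusted p = 0.0179), Hist2h2aa2 -1.23 (adjusted p = 0.036), Hist1h2an -1.73 (adjusted p = 0.0374) and Hist1h2bh 1.02 (adjusted p = 0.0448). These are the members with the 5 smallest p for FSK against DMSO in edgeR. For DHPG against DMSO the authors' deposited table had 2 members lower, Hist1h2ai at -1.05 (adjusted p = 0.0231) and Hist1h2bc at -0.48 (adjusted p = 0.029), and 0 higher, where 1.48% of its rows passed.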

How the data were processed

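Total RNA of 16 libraries was used here, and the miRNA libraries of the series were not used. Salmon, DESeq and the GRCm38 build are named in the submitters' processing notes, without versions. The deposited values are estimated counts, and those were rounded to whole numbers before each test. The authors' deposited tables of log2 fold change, p-value and adjusted p-value are quoted only where named. Columns headed Control in the count table were taken as the DMSO samples of the same number.

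Counts were tested with edgeR 4.0.16 (quasi-likelihood F test, robust, TMM factors, filterByExpr with a minimum count of 10) in R 4.3.3, with the 3 groups in 1 fit. P-values were adjusted by Benjamini-Hochberg over 17173 features with a limit of 0.05, and an adjusted p with no tool named comes from this fit. Levels are CPM after TMM scaling, and are not per length, so levels of different genes were not ranked against each other beyond choosing members to name. The members and the gene lists were chosen with earlier results of these data known. Named members were the 2 of highest mean CPM in each class, the 4 of smallest p in each comparison and those past the limit. Hist1h2bh, Hist2h3b, Hist1h1a, the members of the printed pairs, Hist1h4k and those listed for FSK 6 were added after their values were seen. The procedure was tested on simulated counts with the same spread for all genes. These held no library sets beyond depth, no library like FSK 6 and no divided reads, so the simulation does not cover those features. Alternatives were DESeq2 1.42.0, limma 3.58.1 (voom with quality weights), other scalings and filters, a replicate block, a library-set term, single library sets and leaving out libraries. The main fit did not pair samples by replicate number. Correlations of same-numbered libraries ran from -0.52 to 0.49, which neither shows nor excludes a pairing. Members were matched to RefSeq (GRCm38.p6) by synonym, 63 of 64. Hist1h2ap matched more than 1 RefSeq gene and was left out of positions and promoters.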

Additional observations from a re-analysis of the deposited data

Results flagged for a closer look

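Of 81 sets of values within 1 group, 5 held a library farther from the others than Dixon's 95% limit, and chance gives about 1 in 20. Each of the 5 was a set of values of 1 member. For Hist2h2be, FSK 4 stood highest in FSK at 7.34 CPM, with the next at 5.46 CPM. For Hist1h3e, DHPG 5 stood highest in DHPG at 45.1 CPM, with the next at 37.0 CPM. For Hist1h2bl, DHPG 6, the deep DHPG library, stood lowest in DHPG at 10.9 CPM, with the next at 18.0 CPM. For Hist1h2ao, DHPG 6 was the one DHPG library above 0, at 1.12 CPM. For Hist2h2bb, DMSO 1, the shallow DMSO library, stood highest in DMSO at 52.7 CPM, with the next at 28.3 CPM.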

How the results depend on the processing

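The median log2 fold change of the members kept its sign under every setting run for FSK against DMSO, from -1.15 (deep libraries alone) to -0.15 (limma-voom), and for FSK against DHPG, from -0.95 (deep) to -0.17 (shallow). Leaving out 1 library at a time, it ranged from -0.81 to -0.45 for FSK against DMSO, from -0.72 to -0.41 for FSK against DHPG and from -0.21 to -0.00091 for DHPG against DMSO. For DHPG against DMSO it was 0.19 with the replicate block, 0.070 with limma-voom and -0.54 without FSK 4 and FSK 5 with the library-set term. For FSK against DMSO the count of members past the limit was 0 in edgeR (0.809% of all features) and 25 with the library-set term (9.45%). It was 36 with that term and without FSK 6 (23.2%). The count was 0 with that term and without FSK 4 and FSK 5 (0.335%) and 0 in the shallow libraries alone (0.0619%). It was 1 in the deep libraries alone (Hist3h2ba, where 0.761% of all features passed), 6 with DESeq2 (7.43%), 19 with limma-voom (11 lower and 8 higher, 35.2%), 1 with the replicate block (3.09%), and 0 to 1 on leaving out 1 library. For DHPG against DMSO it was 8 with limma-voom (6 higher and 2 lower, where 34.7% of all features passed), against 0 in edgeR, and 0 on leaving out any library. For FSK against DHPG the count of 7 became 3 with library totals (14.6% of all features), 2 with no filter (8.22%), 13 with DESeq2 (37%) and 18 with the replicate block (24.3%). It was 0 in the deep libraries alone (0%), in the shallow libraries alone (0.0506%) and without FSK 4 and FSK 5 (0.0179%). The count was 4 without FSK 4 and FSK 5 with the library-set term (9.27%), 15 without FSK 6 with that term (33.2%), and 1 to 13 on leaving out 1 library. On leaving out 1 library at a time, the share of all features past the limit moved too. It ran from 10.6 to 33.9% for FSK against DHPG, from 0.0686 to 2.49% for FSK against DMSO and from 0 to 0.0287% for DHPG against DMSO. The log2 ratio of the summed level of FSK over DMSO was -0.44 with library totals and -0.52 with DESeq2 size factors. Signs turned for members near 0. For FSK against DMSO, Hist1h1c was 0.077 with limma-voom, 0.066 in the shallow libraries and 0.042 without FSK 4 to 6 with the library-set term, and Hist1h3e was 0.33, 0.19 and 0.18 under the same settings and -0.26 to 0.088 on leaving out 1 library. Hist1h2br was -0.32 with the library-set term, -0.67 in the deep libraries, -0.47 without FSK 4 and FSK 5 with the term, -0.044 without FSK 6 with the term, and -0.10 to 0.28 on leaving out 1 library. Hist1h2bc was 0.013 in the shallow libraries and Hist1h2bl -0.12 without FSK 4 and FSK 5 with the term. For DHPG against DMSO, Hist2h2bb was -0.023 in the shallow libraries. The cause of these shifts was not tested. Hist1h2ao and Hist1h2ba had under 10 counts in several libraries, which limits the precision of their values.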
